A study of Mus musculus with 36 samples.

Results

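SMCHD1 (structural maintenance of chromosomes hinge domain containing 1) is a chromatin protein with a GHKL ATPase domain that accumulates on the inactive X chromosome (Xi) and contributes to keeping many X-linked genes silent. X inactivation starts when Xist RNA coats one X chromosome, after which most genes on that chromosome lose transcription over days, while escape genes retain some. G137E is a substitution in the ATPase domain that raises ATPase activity in vitro, measured on the isolated domain. G137E was compared with its parental line Halo-SMCHD1 at day 7 of differentiation, chosen by line and day from the labels, in 6 of the 36 libraries of the series. The question was, gene by gene, how large a change in Xi silencing lay outside the measured intervals and in which genes no library of one line fell among those of the other.

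Both lines are interspecific XX mouse embryonic stem cells (mESCs) of the iXist-ChrX model, in which a doxycycline (dox) inducible promoter drives Xist on the 129S X chromosome, so the 129S allele is the Xi and the Cast allele the active X (Xa). Halo-SMCHD1 carries a Halo tag on endogenous SMCHD1 and an eGFP-CIZ1 transgene, and G137E carries the substitution on both alleles in that background, so both share these alleles. Each line is 1 clone, so an effect of the substitution and a difference between clones cannot be told apart. Cells were differentiated as a monolayer without feeders for 7 days under dox at 1 µg/ml, with 3 libraries per line, and chromatin-associated RNA was sequenced (ChrRNA-seq), which follows transcription more closely than total RNA. At day 5 there were 2 libraries per line, and 1 library per line was made without dox and 1 after 24 h of dox. The libraries without dox and after 24 h were of undifferentiated cells, so differentiation and time under dox change together after that. The study's methods describe the libraries of a group as independent repeats of 1 clone, so p values measure the spread between repeats and not between clones.

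The mutated residue lies in exon 3 of 48 of Smchd1 on chromosome 17, at chr17:71463775-71463777 on the minus strand (mm10, which is GRCm38; GENCODE vM21 transcript Smchd1-201). The sequence around it is shown because the substitution defines the G137E line. The methods also describe mutations of the PAM or new restriction sites in most repair vectors, so other designed bases may differ near it, and these were not examined here. Capitals mark the mutated codon in the first sequence and the PAM of the guide used to make the edit in the second. The first is the unedited reference strand of the transcript, at chr17:71463762-71463822, and the second lies at chr17:71463776-71463798 on the same strand.
Smchd1 exon 3: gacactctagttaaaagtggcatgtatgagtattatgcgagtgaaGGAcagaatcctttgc
Guide: tatgagtattatgcgagtgaAGG
The PAM covers the first bases of the codon. Smchd1 is autosomal and so is not among the genes measured, and the genotype of the libraries was not checked here.

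What was measured is, per gene and library, the fraction Xi/(Xi+Xa), which is near 0.5 with no silencing and near 0 with complete silencing. It was listed for 242 X-linked genes between positions 6047506 and 103484957 of the X chromosome (mm10), with 0 missing values. The fractions come without read counts, so depth and counting error are unknown, and a value of 0 is given here only as listed. The genes are X-linked only, so autosomal markers of the differentiated cells or of feeder cells cannot be read from them. Of the 242 genes, 190 were listed at 0 in at most 1 of the 6 libraries and 2 (Rab39b and Spin4) in all 6.

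At the level of whole libraries the lines were not separated. The mean over genes was 0.0603, 0.0708 and 0.0787 in Halo-SMCHD1 replicates 1, 2 and 3, and 0.0658, 0.0649 and 0.0820 in G137E replicates 1, 2 and 3. The groups overlapped almost completely. The group means were 0.0699 ± 0.00925 (SD, n = 3) for Halo-SMCHD1 and 0.0709 ± 0.00961 (SD, n = 3) for G137E, a difference of 0.000982 (two-sided exact permutation test, p = 1, where 3 against 3 cannot go below 0.1). The shifts this test did not reject, a 90% interval, ran from -0.0138 to 0.0217. For library medians the difference was 0.00199 (exact permutation p = 0.9), with an interval from -0.0116 to 0.0242. The sign of both differences turned when Halo-SMCHD1 replicate 1 was left out (means -0.00385, medians -0.00436) or G137E replicate 3 was left out (means -0.00456, medians -0.00276).

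**Figure D1:**
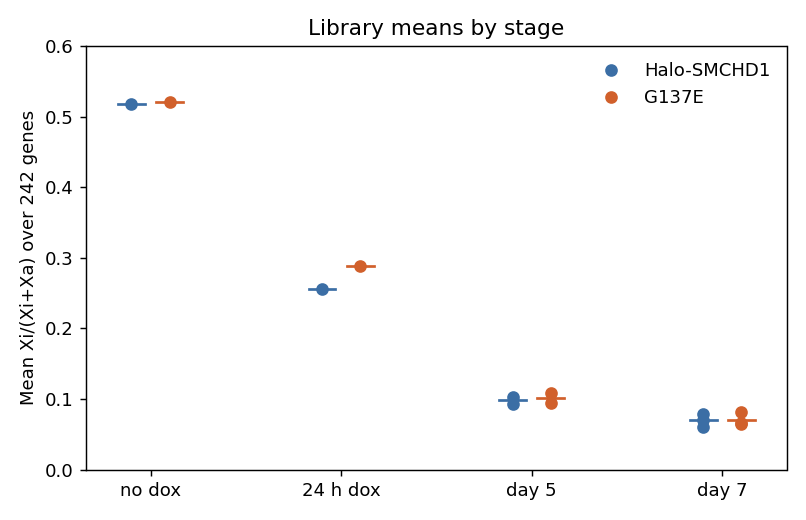
Mean Xi/(Xi+Xa) over 242 genes (y axis) in each library (points; short lines are group means) of Halo-SMCHD1 and G137E by stage (x axis: no dox, 24 h dox, day 5, day 7). The day 7 points of the lines interleave between 0.0603 and 0.0820, and the 24 h points rest on 1 library each.

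Libraries of different lines were on average no further apart than replicates of one line. The median over genes of the absolute difference between 2 libraries ranged from 0.0120 to 0.0220 over the 9 pairs between lines and from 0.0119 to 0.0210 over the 6 pairs within a line. The mean distance between lines was 0.0150 and that within lines 0.0161 (one-sided exact permutation test over 20 assignments, p = 0.8, where 0.1 is the smallest p it can give). The widest pairs in both sets held G137E replicate 3, which had the highest library mean.

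The earlier stages place these values. Without dox the library mean was 0.518 in Halo-SMCHD1 against 0.521 in G137E. After 24 h of dox it was 0.256 in Halo-SMCHD1 against 0.289 in G137E, with 168 genes higher and 69 lower in G137E, from 1 library per line and so without a replicate check. At day 5 the Halo-SMCHD1 libraries had means of 0.103 and 0.0931, and those of G137E 0.0947 and 0.109.

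For single genes, differences are given in log2 odds, log2((r + 0.01)/(1 - r + 0.01)) with r the fraction, G137E minus Halo-SMCHD1. A value of 1 is a doubling of the odds of an Xi read, and the added 0.01 shrinks the change of genes near 0. No gene passed an adjusted p of 0.05 in limma (0 of 242 genes, percent called 0, smallest Benjamini-Hochberg adjusted p 0.543). The count stayed at 0 without any 1 library, but the smallest limma adjusted p fell to 0.0658 when G137E replicate 3 was left out, and lay between 0.0701 and 0.121 when 1 of the Halo-SMCHD1 libraries was left out or with the replicate block. At an unadjusted p under 0.05 limma gave 20 genes (8.26% of those tested), 13 higher and 7 lower in G137E. That count was 6 with only the 6 libraries compared, 11 without G137E replicate 1, 10 on untransformed fractions and 13 in the other deposited table. Of these 20 genes, 13 were listed at 0 in at least 1 of the 6 libraries. The median difference over all genes was 0.05 log2 odds, and 135 genes had a higher mean in G137E, 104 a lower one and 3 the same.

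**Figure D2:**
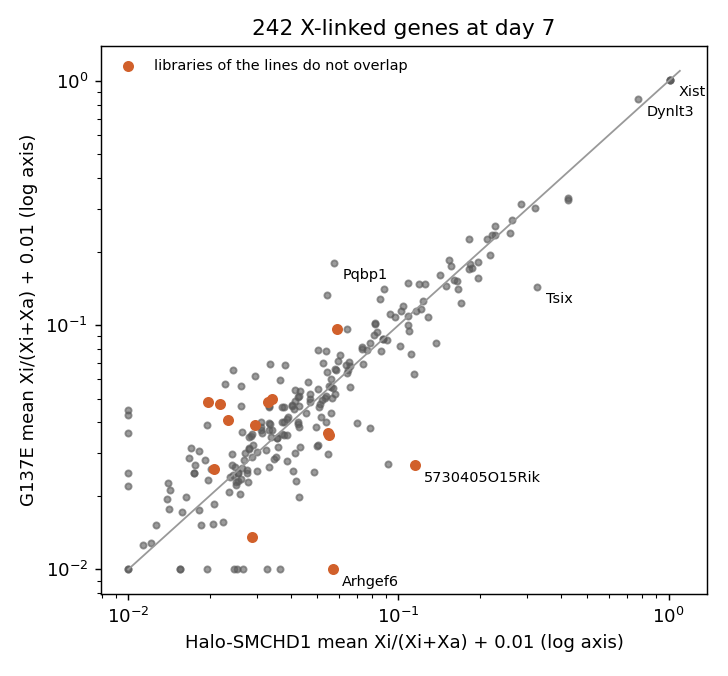
Mean Xi/(Xi+Xa) plus 0.01 at day 7 of each of 242 genes in Halo-SMCHD1 (x axis) and G137E (y axis), n = 3 libraries per line, log axes; the line marks equal values and orange points are the 13 genes whose libraries do not overlap. Most genes lie along the line, and the points off it are mostly low, with Tsix and Pqbp1 furthest in fraction.

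The size of change that stayed inside each gene's 95% limma interval differed widely between genes. The larger absolute bound of the interval, here called its reach, had a median of 1.17 log2 odds and quartiles of 0.79 and 1.95, and ran from 0.29 to 5.39. The interval lay inside ±0.5 log2 odds for 11 genes, inside ±1 for 100 genes (41.3%), inside ±1.5 for 156 and inside ±2 for 185 of 242. For scale, the median difference over 249 genes was -0.78 log2 odds between G137E and the mutant line E147A. It was -0.48 between G137E and the mutant line Y353C, and both lines are taken up below. Both medians lie inside ±1, so a gene inside ±1 may still have changed by that much. The equivalence test, with limma standard errors and Benjamini-Hochberg adjustment, passed for 0 genes at ±0.5, 91 at ±1 (37.6%), 166 at ±1.5 and 196 at ±2. These counts depended on the pseudocount: with 0.001 in place of 0.01 the interval lay inside ±1 for 60 genes and equivalence passed for 33, and with 0.05 for 186 and 200. At ±0.5, the pseudocount of 0.05 gave 87 intervals and 68 equivalence calls, and that of 0.001 gave 5 intervals and 0 calls. The 11 intervals inside ±0.5 became 6 without Halo-SMCHD1 replicate 3, G137E replicate 1 or G137E replicate 3, 6 with only the 6 libraries compared and 5 among genes between 0.25 and 0.75 without dox. Equivalence at ±1.5 passed for 107 genes with a pseudocount of 0.001. Equivalence at ±1 also passed for fewer genes with smaller fits: for 20 with only the 6 libraries compared, and for 59, 47, 50 and 46 without Halo-SMCHD1 replicate 2, Halo-SMCHD1 replicate 3, G137E replicate 1 and G137E replicate 2.

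On the fraction itself, where no pseudocount enters, the interval lay within ±0.02 for 42 genes (17.4%), within ±0.05 for 150 (62%) and within ±0.1 for 213 (88%). The median reach was 0.0394, with quartiles of 0.0247 and 0.0639. The median over genes of the Halo-SMCHD1 mean was 0.0324, so ±0.05 is wider than the whole value of most genes. Reach on this scale rose with the level of the gene (Spearman's rho 0.53 over 242 genes), so genes with low fractions tended to have the narrower intervals. These intervals on the untransformed scale were added after the data had been seen.

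**Figure D3:**
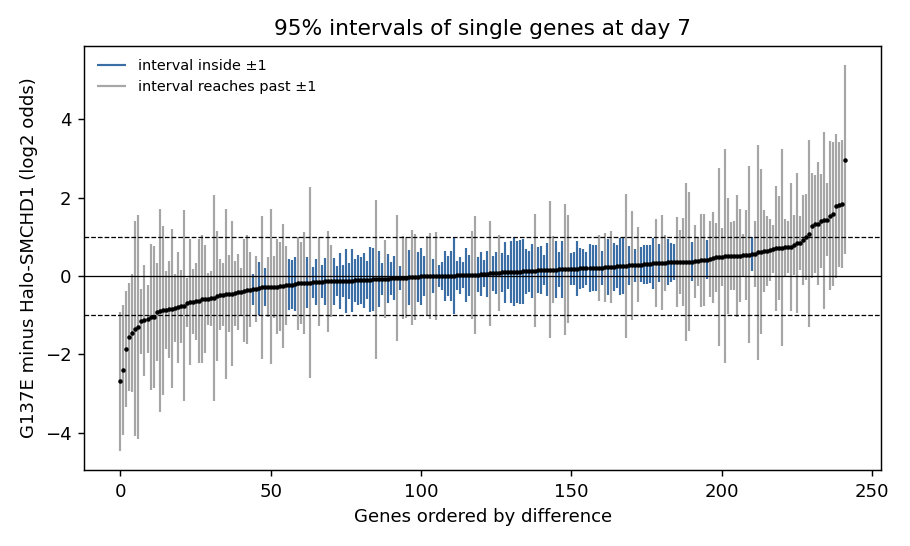
Difference in log2 odds (points) with its 95% limma interval (vertical lines) for 242 genes ordered by difference (x axis); blue intervals lie inside ±1 (dashed lines) and grey ones do not. The 100 blue intervals sit in the middle of the order, and intervals reach up to 5.39 at the right end.

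The genes with the narrowest intervals were Ube2a, Xist and Pola1, of which Ube2a and Xist lay at the top of the scale, where a narrow interval says nothing about silencing. Ube2a, a ubiquitin-conjugating enzyme, was listed at 1.00 in all 6 libraries and also at 1.00 without dox in both lines, so it was the same before and after induction. Xist, the RNA that starts inactivation, had a mean of 0.999 in Halo-SMCHD1 against 0.998 in G137E. Of the 4 genes with a mean above 0.5 in either line, 2 were among the 11 intervals inside ±0.5 and 3 among the 100 inside ±1. Pola1, the catalytic subunit of DNA polymerase alpha, had 0.0170, 0.0205 and 0.0220 in Halo-SMCHD1 against 0.020, 0.0209 and 0.0195 in G137E, and its interval of -0.32 to 0.35 log2 odds was the narrowest of any gene with a Halo-SMCHD1 mean below 0.05.

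At the other end, Pqbp1, 5730405O15Rik and Zfp300 had the widest reach, 5.39, 4.47 and 4.17 log2 odds. Reach was larger in short genes: its median was 1.85 log2 odds in the 61 genes with the shortest genomic span (median 6.35 kb) and 1.00 in the 61 with the longest (median 128 kb), and Spearman's rho between reach and span over 242 genes was -0.31. This is a description across genes of the same libraries. Whether read number accounts for it was not tested, since counts are not given.

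The genes with a mean above 0.5 in either line were Ube2a, C330007P06Rik, Xist and Dynlt3. Dynlt3, a dynein light chain, had 0.778, 0.794 and 0.706 in Halo-SMCHD1 against 0.854, 0.887 and 0.753 in G137E. The libraries of the lines overlapped, and the difference of 0.67 ± 0.35 log2 odds (SE) gave a limma adjusted p of 0.675. The difference was 0.39 without G137E replicate 2 and 1.03 without G137E replicate 3. It was high without dox too, at 0.869 in Halo-SMCHD1 against 0.879 in G137E.

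Tsix, the antisense partner of Xist, told apart from it by strand in the counting, had the largest difference in mean fraction, -0.181. Its values were 0.186, 0.647 and 0.111 in Halo-SMCHD1 against 0.212, 0.0821 and 0.106 in G137E, so the difference rested on Halo-SMCHD1 replicate 2. Its interval ran from -4.10 to 1.42 log2 odds (limma adjusted p = 0.949).

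The libraries were also compared without a model, by asking in which genes the 3 of one line all lay on one side of the other 3. There were 13 such genes (5.37% of 242), 8 higher and 5 lower in G137E. The count is a description and is not evidence that these genes differ between the lines. Only 1 of them, 5730405O15Rik, differed by more than 0.05 in mean fraction, and 6 were listed at 0 in at least 1 library. Among the 13, 8 also had an unadjusted limma p under 0.05.

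Of the higher genes, Kif4, a chromosome-associated kinesin (chrX:100626064-100727271), had 0.0220, 0.0226 and 0.0276 in Halo-SMCHD1 against 0.0492, 0.0294 and 0.0412 in G137E. Its difference was 0.56 ± 0.19 log2 odds (SE; limma adjusted p = 0.543). Flna, the actin crosslinker filamin A, had 0.0215, 0.0234 and 0.0239 in Halo-SMCHD1 against 0.0531, 0.0252 and 0.0368 in G137E. Neither gene was listed at 0 in any library, and in both the gap between the lines was smaller than the range within G137E. Ppp1r3f, a regulatory subunit of protein phosphatase 1, had 0.0435, 0.0339 and 0.070 in Halo-SMCHD1 against 0.0962, 0.0909 and 0.0714 in G137E. Tenm1 (a teneurin) and Itgb1bp2 (melusin) were higher by 1.29 and 1.00 log2 odds, each with 1 Halo-SMCHD1 library listed at 0. Las1l, a factor of ribosomal RNA processing, and Gpc4, a glypican, were the smallest of the group at 0.41 and 0.35 log2 odds and are named after their values were seen. Leaving out 1 library moved some of these differences by over 1.5 times: Flna from 0.54 to 0.31 without G137E replicate 1, Tenm1 to 0.80 and Gpc4 to 0.14 without Halo-SMCHD1 replicate 1, and Itgb1bp2 to 0.46 without Halo-SMCHD1 replicate 3. The pseudocount moved them too: between 0.001 and 0.05 the difference ran from 2.48 to 0.54 for Tenm1, from 2.09 to 0.39 for Itgb1bp2, from 0.71 to 0.30 for Kif4, from 0.68 to 0.29 for Flna, from 0.56 to 0.20 for Las1l and from 0.62 to 0.13 for Gpc4.

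Of the lower genes, Arhgef6, an exchange factor for Rac and Cdc42 (chrX:57231484-57338729), was listed at 0 in all 3 G137E libraries and at 0.0244, 0.0889 and 0.0278 in Halo-SMCHD1. 5730405O15Rik (chrX:13042014-13045295) was listed at 0, 0 and 0.050 in G137E and at 0.0909, 0.0588 and 0.167 in Halo-SMCHD1. Both rest on libraries listed at 0, so the size of their log2 odds difference is set by the pseudocount. For Arhgef6 it was -5.40, -2.40 and -0.96 with 0.001, 0.01 and 0.05 added, and for 5730405O15Rik -4.85, -2.70 and -1.38. Gabra3, a GABA-A receptor subunit, had 0.0253, 0.0110 and 0.0197 in Halo-SMCHD1 against 0.0107, 0 and 0 in G137E, a difference of -3.06 log2 odds with a pseudocount of 0.001 and -0.38 with 0.05. Stag2, a cohesin subunit, had 0.0417, 0.0410 and 0.0519 in Halo-SMCHD1 against 0.0376, 0.0134 and 0.0276 in G137E, a difference of -0.68 ± 0.28 log2 odds (SE; limma adjusted p = 0.554), which was -0.39 without G137E replicate 2. Pdzd11, a PDZ domain protein, differed by -0.66 log2 odds. With a pseudocount of 0.05 the difference was -0.35 for Stag2 and -0.36 for Pdzd11.

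**Figure D4:**
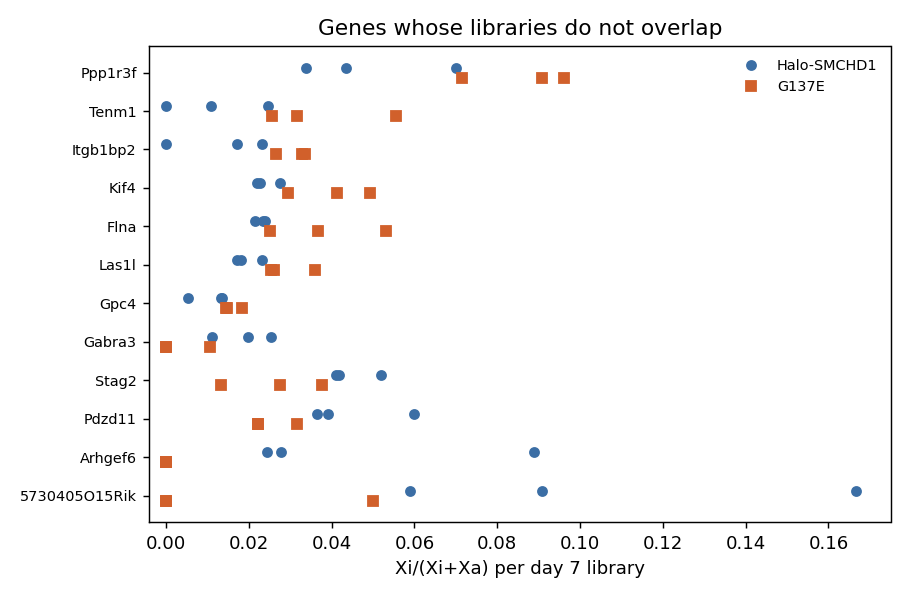
Xi/(Xi+Xa) at day 7 in each library (points; blue circles Halo-SMCHD1, orange squares G137E) of 12 of the 13 genes whose libraries do not overlap, ordered by difference of means. The values run from 0 to 0.167, and the lines are separated in each row.

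The other genes among the 10 smallest p values overlapped between the lines. Upf3b, a factor of nonsense-mediated decay, had 0.117, 0.0909 and 0.104 in Halo-SMCHD1 against 0.0208, 0.0462 and 0.0917 in G137E (-1.09 ± 0.39 log2 odds, SE; limma adjusted p = 0.543). Pqbp1, a polyglutamine-binding protein linked to splicing, was listed at 0, 0.143 and 0 in Halo-SMCHD1 against 0.108, 0.151 and 0.25 in G137E, the largest positive difference in mean fraction of all genes at 0.122, with an interval of 0.56 to 5.39 log2 odds. Emd (emerin) and Chst7 (a sulfotransferase) were higher by 1.41 and 0.84 log2 odds, and Mageb16, of the MAGE family, differed by -1.87 log2 odds. These also moved by over 1.5 times without 1 library: Upf3b to -0.64 without G137E replicate 1, Emd to 0.68 without Halo-SMCHD1 replicate 2, and Chst7 to 0.50 and Mageb16 to -1.18 without Halo-SMCHD1 replicate 1. With pseudocounts of 0.001 and 0.05 the difference was 5.13 and 1.62 log2 odds for Pqbp1, 2.54 and 0.67 for Emd, 1.94 and 0.29 for Chst7, -3.11 and -0.97 for Mageb16, and -1.27 and -0.71 for Upf3b.

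The day 5 libraries took no part in the day 7 differences or in the non-overlap of day 7, although they share the limma estimate of spread. They were 2 against 2, where non-overlap is more frequent (58 of 242 genes, 24.0%). Limma called 0 genes at day 5 (percent called 0; 3 higher and 4 lower at an unadjusted p under 0.05, smallest adjusted p 0.321). Of the 13 genes, 5 had mean fractions on the same side at day 5, 3 did so without overlap (Arhgef6 and Itgb1bp2 among them) and 2 were on the opposite side without overlap (Las1l and 5730405O15Rik). Kif4 differed by 0.01 log2 odds at day 5. The test of line by day, (G137E minus Halo-SMCHD1 at day 7) minus the same at day 5, passed for 0 genes in limma (percent called 0; 5 higher and 6 lower at an unadjusted p under 0.05, smallest adjusted p 0.495).

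**Figure D5:**
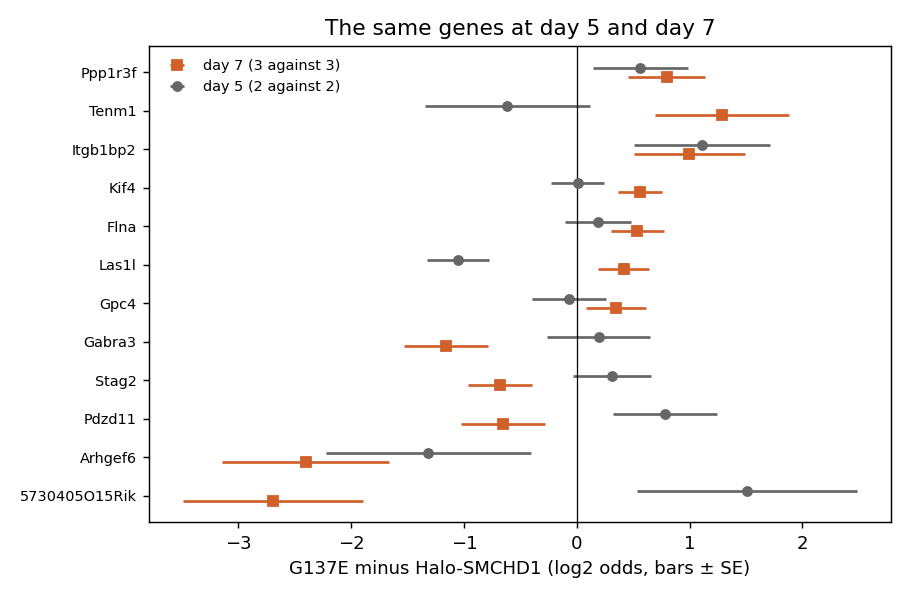
Difference in log2 odds between G137E and Halo-SMCHD1 (points, bars ± SE from limma) at day 7 (orange squares, 3 against 3) and day 5 (grey circles, 2 against 2) for 12 of the 13 genes whose day 7 libraries do not overlap. The day 5 point of Kif4 sits at 0.01, and Las1l and 5730405O15Rik lie on opposite sides of 0 at the 2 days.

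Gene groups were described by counts and medians, with no test of their own. Among the 6 measured escape genes of the list, 0 had an unadjusted p under 0.05 and all 6 intervals lay inside ±1 log2 odds, against 41.3% over all 242 genes. On the fraction itself, 3 of the 6 intervals lay within ±0.05, against 150 of all 242 genes (62%), so the list was not tighter on that scale. The list had a median Halo-SMCHD1 mean of 0.218, against 0.0324 over all genes. Over all genes, reach fell with level in log2 odds (Spearman's rho -0.23) and rose with it on the fraction (0.53). Xist, at the top of the scale, is one of the 6. Kdm6a, a histone demethylase, had 0.232, 0.257 and 0.270 in Halo-SMCHD1 against 0.265, 0.245 and 0.271 in G137E, and Eif2s3x, a translation initiation factor subunit, had means of 0.218 and 0.245. The cytoskeleton and mitosis list had the highest median, 0.56 log2 odds over 11 measured genes against 0.05 over all 242, with 5 higher and 2 lower at an unadjusted p under 0.05 in limma and 0 past adjustment. Those higher included Kif4, Flna, Emd and Ercc6l (a mitotic helicase), those lower were Arhgef6 and Stag2, and the median reach of the list was 1.44 log2 odds. The count became 1 higher and 2 lower without G137E replicate 1, 2 and 1 without Halo-SMCHD1 replicate 2, 3 and 1 without G137E replicate 3, 1 and 1 with only the 6 libraries compared and 3 and 0 on untransformed fractions. Kif4, Flna, Ercc6l and Emd were already named in earlier results of these data when the list was written, so its count is not independent evidence of a direction, and over all genes 8.26% had such a p. The chromatin and transcription list (19 genes) had a median of 0.01, the RNA processing and translation list (21 genes) 0.04, the mitochondrial list (10 genes) -0.01, the ubiquitin list (9 genes) 0.07 and the kinase and phosphatase list (13 genes) 0.23 log2 odds. The X inactivation centre list held 3 measured genes (median -0.05), the neural list 6 (median 0.03) and the fibroblast and matrix list 4 (median 0.14).

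G137E was also set against the other mutant lines. K518E is another substitution of raised ATPase activity in vitro. At day 7 limma called 0 of 242 genes between G137E and K518E (percent called 0; 9 higher and 8 lower at an unadjusted p under 0.05, smallest adjusted p 0.355), and the library means differed by 0.00110 (exact permutation p = 1, 3 against 2, where 0.2 is the smallest possible). E147A is a substitution that abolishes ATP hydrolysis in vitro. Against E147A limma called 19 of 249 genes, all lower in G137E (7.63%). The library means differed by -0.0384 (exact permutation p = 0.2, the smallest possible). With the replicate block, the E147A library with no matched replicate number sat alone in its block, and the contrast rested on the other one. The E147A libraries had means of 0.0887 and 0.134, the second being the library with no matched replicate number. The difference in library means was -0.0159 without that library and -0.0609 without the other. Without the unmatched library limma called 1 gene and without the other 65, and without G137E replicate 1 or 2 it called 7 or 1. Against Y353C, a substitution of strongly reduced ATPase activity, limma called 1 gene, Spin4, lower in G137E (0.402%, and 2 genes without G137E replicate 3). The library means differed by -0.0205 (exact permutation p = 0.2).

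Kif4, Flna, Chst7, Emd and Ercc6l were also among the genes called in both E147A and Y353C against Halo-SMCHD1. There limma called 40 (16.1%) and 8 (3.21%) genes higher. These comparisons share the Halo-SMCHD1 libraries with that of G137E, so their values are given side by side only. Kif4 had 0.122 and 0.103 in E147A and 0.0688 and 0.0941 in Y353C, and Flna 0.114 and 0.0961 in E147A and 0.0964 and 0.0820 in Y353C, all above every G137E library. Compared directly, Kif4 was lower in G137E than in E147A, with a difference of -1.43 log2 odds (limma adjusted p = 0.0150). Kif4 did not pass with the replicate block, where the unmatched E147A library sat alone in its block and took no part in the contrast. That setting is therefore no separate check from leaving that library out. Without the unmatched E147A library the difference was -1.55 log2 odds and no longer passed (limma adjusted p = 0.092), and without G137E replicate 2 it was -1.26 and did not pass either (limma adjusted p = 0.0744). Enox2 had 0.0369, 0.0273 and 0.0441 in G137E, 0.0961 and 0.123 in E147A and 0.0732 and 0.102 in Y353C. Spin4 was listed at 0 in every Halo-SMCHD1 and G137E library at day 7, at 0.0625 and 0.0714 in E147A and at 0.0227 and 0.0333 in Y353C, and its limma p rests on a spread of 0 among the libraries listed at 0.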

How the data were processed

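ChrRNA-seq libraries of mESC lines were compared. The authors aligned reads to mm10, split them by 129S and Cast SNPs and counted them by strand over genes (the submitters' processing notes name Bowtie2, STAR, featureCounts and SAMtools), and deposited the fraction Xi/(Xi+Xa) per gene and library for genes above a minimum of SNP reads. Values are not normalised between libraries and replicates are not pooled. Depth is unknown. The 2 deposited columns that could not be matched to a label were not used, and 1 E147A column has no matched replicate number. The 2 tables (242 and 249 genes) gave identical values for the 239 genes and 14 libraries they share.

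Single genes were fitted with limma 3.58.1 on log2((r + 0.01)/(1 - r + 0.01)) over all 14 differentiated libraries of the table with K518E, 1 group per line and day, with 8 residual degrees of freedom (10 over the 18 libraries of the other table, for E147A and Y353C), p values adjusted by Benjamini-Hochberg and a threshold of 0.05. Library values were compared by exact permutation tests. The limma code was tested on simulated data. Named genes are Xist, Tsix, the 10 smallest p, the 10 largest differences without overlap, the 3 narrowest and 3 widest intervals, means above 0.5, up to 3 per list, and up to 6 called in both E147A and Y353C, and 1 gene that the rule names is not reported here. The members and the 10 lists were chosen with earlier results of these data known. Alternatives were other pseudocounts, fewer libraries, a replicate block, other filters, the other table and leaving out each library.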

Additional observations from a re-analysis of the deposited data

Results flagged for a closer look

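For 2 genes the libraries of G137E and Halo-SMCHD1 did not overlap on one side at day 7 and on the opposite side at day 5. For Las1l the day 7 difference exceeded the day 5 difference by 1.47 ± 0.35 log2 odds (SE; limma unadjusted p = 0.00205, adjusted p = 0.495). Las1l had 0.0409 and 0.0676 in Halo-SMCHD1 against 0.0188 and 0.0240 in G137E at day 5. At day 7 the values were 0.0181, 0.0172 and 0.0233 in Halo-SMCHD1 against 0.0254, 0.0260 and 0.0359 in G137E. For 5730405O15Rik the same contrast was -4.20 ± 1.26 log2 odds (SE; limma unadjusted p = 0.00762, adjusted p = 0.578), with 0.0286 and 0.1000 in Halo-SMCHD1 against 0.148 and 0.167 in G137E at day 5. At day 7 this gene was listed at 0, 0 and 0.050 in G137E and at 0.0909, 0.0588 and 0.167 in Halo-SMCHD1, so its contrast is set by the pseudocount: it was -6.53 with 0.001 and -2.45 with 0.05, against 1.88 and 0.78 for Las1l. Neither gene passed the adjusted threshold in limma with any of these pseudocounts.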

How the results depend on the processing

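No alternative gave a gene past the adjusted threshold between G137E and Halo-SMCHD1 at day 7. The smallest limma adjusted p ranged from 0.0658 to 0.795 over them. The number of intervals inside ±1 log2 odds (100) was 60 with a pseudocount of 0.001, 186 with 0.05 and 76 to 92 leaving out each library. The number of equivalence calls (91) was 33 and 200 with those pseudocounts, 20 with only the 6 libraries compared, 58 in the other table and 46 to 71 leaving out each library. The difference in library means ranged from -0.00456 to 0.00538 and that in medians from -0.00436 to 0.00638 leaving out each library. G137E against E147A (19 genes) ranged from 1 to 65, and against Y353C (1 gene) from 1 to 2.

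Replicate numbers do not pair the libraries: deviations of same-numbered libraries correlated at 0.02, 0.01 and 0.09, and of the Halo-SMCHD1 libraries replicates 2 and 3 but not replicate 1 correlated best with their own number. With the replicate block limma called 0 genes, with 110 intervals and 108 equivalence calls. The differences in library means (0.000982) and medians (0.00199) cannot change under the block, since both lines hold the same replicate numbers, so they are no check. The block called 0 genes at day 5 and for line by day, 1 gene against K518E and 1 against Y353C. Against E147A the unmatched library sat alone in its block, so the block is no separate check there from leaving it out. The tables hold no read counts, so depth could not be weighed.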
